A study of Mus musculus with 3 samples.

Results

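The protocadherins, the largest group of cadherin-type adhesion molecules, were examined in Ago2 HITS‐clip libraries from N2A cells. All protein-coding genes of the GENCODE M21 annotation whose symbol starts with Pcdh were taken, which gave 69 of 21938 genes. They were 14 genes of the alpha cluster, 22 of the beta cluster, 21 of the gamma cluster and 12 genes outside the clusters. Members were taken by gene name alone, although the family was picked with earlier results of these data known. In HITS‐clip, living cells are irradiated so that RNA becomes bound covalently to proteins in contact with it, and the RNA held by immunoprecipitated Argonaute 2 (Ago2) is sequenced. N2A is an established mouse neuroblastoma line. The 3 libraries formed 1 group, N2A cells under basal conditions, with no treatment, no second genotype and no input or antibody control, each made from cells that received a first ultraviolet dose of 400 mJ/cm2 and later doses of 200 mJ/cm2. The deposited table listed 711377, 498071 and 829936 peaks for replicates 1, 2 and 3. Peaks carried no read counts, so the depth was unknown and a peak could be scored only as present or absent. The labels do not say whether the replicates were separate cultures, and the spread between them may be technical. With 1 group no test between conditions was possible, so values are given per library and beside the opposite strand or all protein-coding genes.

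Clustered protocadherins are homophilic adhesion proteins that give neurons distinct surface identities, through which branches of one cell recognise and avoid each other. In the alpha and gamma clusters each gene has a promoter and a variable first exon of its own, coding for the extracellular and membrane part, and this exon is spliced to constant exons that code for the end of the cytoplasmic tail and carry one 3′UTR for the whole cluster. Beta genes lack constant exons, and each has its own 3′UTR, as do the non-clustered genes. A microRNA (miRNA) loaded in Ago2 pairs through its seed, bases 2 to 8, mostly with sites in 3′UTRs, which lowers the stability or translation of the transcript. A site in a shared 3′UTR is therefore carried by the transcripts of every gene in that cluster. A shared 3′UTR cannot show which of these genes was transcribed, so each shared stretch was counted once and kept apart from the variable exons.

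Only a few miRNA matches lay inside protocadherin peaks of more than 1 library, and their miRNAs are shown for that reason. The mature sequences below are from RefSeq on GRCm38.p6, 5′ to 3′, with the seed in capitals.
miR-181a-5p: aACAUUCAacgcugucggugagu
miR-142a-5p: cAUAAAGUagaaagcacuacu
miR-17-5p: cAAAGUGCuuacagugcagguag
miR-218-5p: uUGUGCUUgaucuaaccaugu
miR-29a-3p: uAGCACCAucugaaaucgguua
miR-137-3p: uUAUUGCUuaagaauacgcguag
No seed was shared between these 6. In the 3′UTR, written as DNA, the matches searched on the strand of the gene were TGAATGT for miR-181a-5p, ACTTTAT for miR-142a-5p, GCACTTT for miR-17-5p, AAGCACA for miR-218-5p, TGGTGCT for miR-29a-3p and AGCAATA for miR-137-3p. A match followed by A is called an 8mer, and one without it a 7mer.

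The 3′UTR shared by the Pcdha genes held peaks in every library. It runs from position 37185257 to 37187657 of chromosome 18 (plus strand, GRCm38), of which 2333 nt were counted as 3′UTR and 68 nt, coding in another transcript, as coding. On the strand of the gene it held 5 peaks in replicate 1, 11 in replicate 2 and 14 in replicate 3, and 0 in each library on the opposite strand. The peaks covered 18.2%, 39.8% and 51.1% of its length, 36.3% ± 16.7 (SD, n = 3). Replicate 1 was the lowest and replicate 3 the highest. Replicate 1 was also the lowest over all 21022 3′UTRs of the genome, which held 0.593, 1.85 and 1.84 same-strand peaks per kb and had a mean coverage of 5.97%, 15.5% and 16%. Of 10243 3′UTRs of at least 1000 nt in the genome, 87.5% had a lower mean coverage. Most of these peaks, 3, 10 and 11, were 86 to 200 nt wide. This width range is given throughout because the strands differed more in it on member exons, so its strand counts are a description only. Peaks of at most 85 nt lay on the strand of the gene 54, 40 and 42 times and on the opposite strand 34, 25 and 19 times. For those of 86 to 200 nt the counts were 26, 61 and 80 against 8, 1 and 1. For wider peaks they were 3, 6 and 6 against 0, 4 and 5.

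The Pcdhg shared 3′UTR split the libraries. This 1744 nt stretch, from 37840130 to 37841873 of chromosome 18, held 0 peaks in replicate 1 and 10 in both replicate 2 and replicate 3, with 0 on the opposite strand in each. Coverage was 0%, 50.6% and 53.6%, or 34.7% ± 30.1 (SD, n = 3). Replicates 2 and 3 thus lay above the alpha 3′UTR in the same library, and replicate 1 lay below. The last 144 nt of the annotated 3′UTR were inside peaks of both, one of which, in replicate 2, was 583 nt wide and ran past the annotated end. The gamma 3′UTR was less rich in A and T, 47.2% against 60.6% for alpha. The part of base composition in the difference was not tested.

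**Figure D1:**
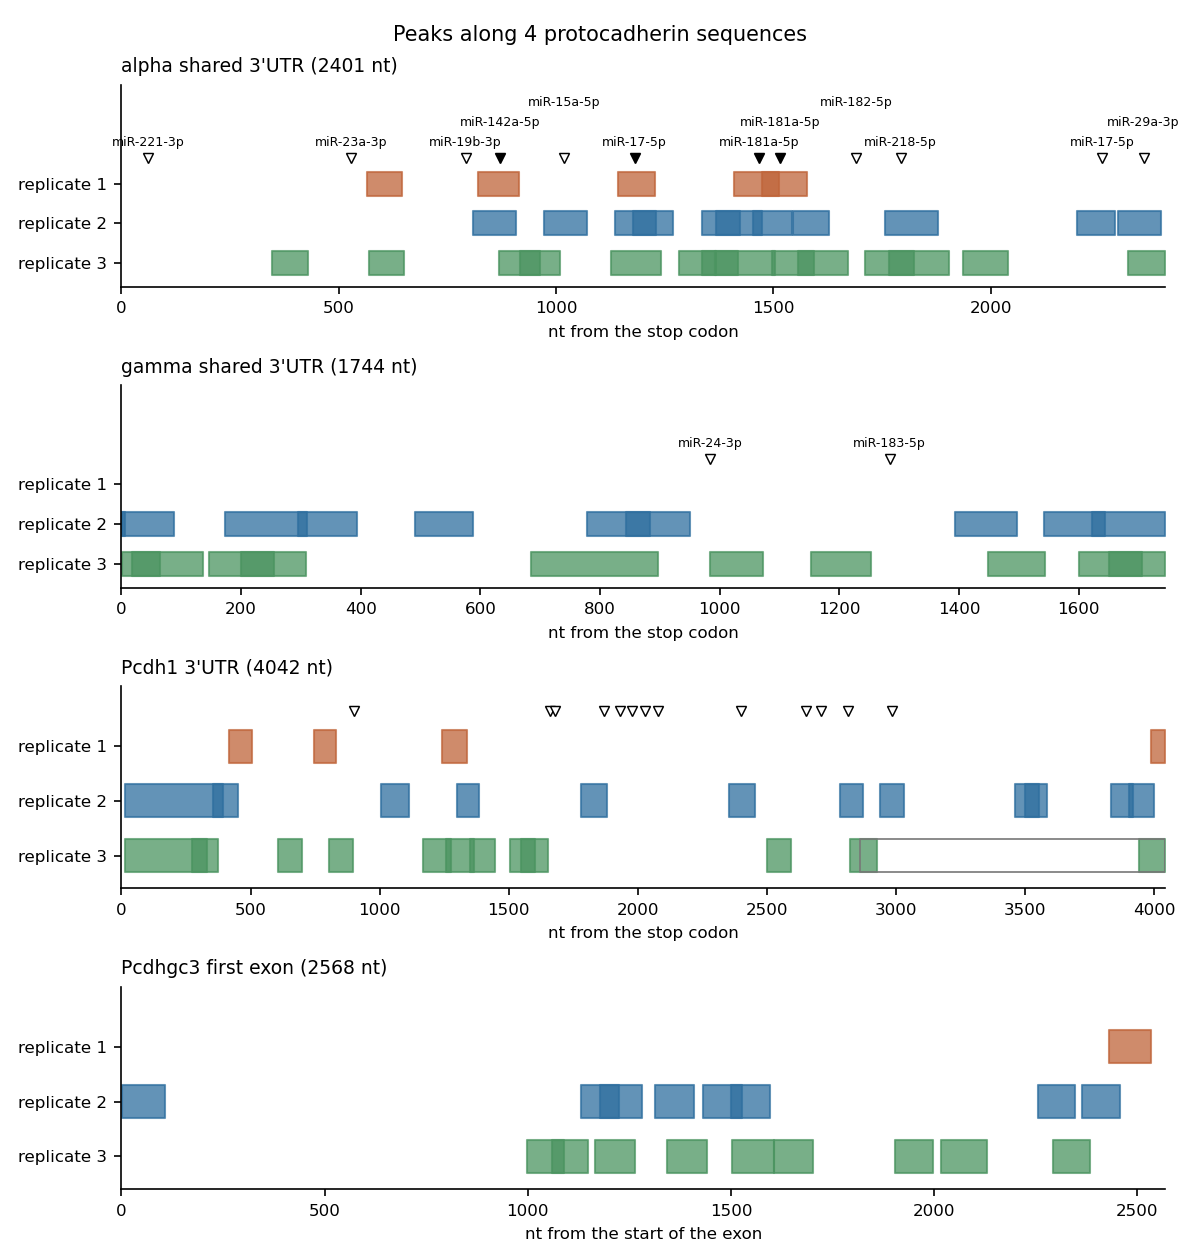
Peaks of each library (filled bars, one row per replicate) along the alpha and gamma shared 3′UTRs, the 3′UTR of Pcdh1 and the first exon of Pcdhgc3, in nt from the stop codon or from the start of the exon. Triangles mark matches to listed miRNA seeds, black where they lie in peaks of all 3 libraries; the open bar is a peak on the opposite strand. The alpha 3′UTR is drawn at its full 2401 nt, and its 4 black triangles lie between 872 and 1515 nt. Replicate 1 has no peak on the gamma 3′UTR.

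The constant coding exons that precede these 3′UTRs were also crossed by peaks. In the alpha cluster, 524 nt of constant coding sequence held 2, 1 and 2 peaks, covering 29.2%, 15.8% and 29.2%. In replicates 1 and 3 one of them was the same interval, 37159240 to 37159322, on the exon at 37159265 to 37159353. The opposite strand held 0, 0 and 1. In the gamma cluster, 372 nt held 0, 3 and 2 peaks, covering 0%, 41.9% and 25.5%, and the opposite strand held none. The gamma exon of the same length, 89 nt, held a peak in replicate 2 that began at 37833284 and one in replicate 3 that began at 37833285. These short exons hold so few peaks that a single one moves the coverage by a large part.

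Variable first exons, the sequence that tells the alpha and gamma genes apart, were mostly without repeatable peaks. A same-strand peak in all 3 libraries lay on 2 of 35, those of Pcdhac2 and Pcdhgc3, and on 0 of 35 on the opposite strand. Over all protein-coding genes, 40% of 21853 had a same-strand exon peak in all 3 libraries and 13% had one on the opposite strand. These shares are over all exons of a gene, 3′UTR included, and so over more sequence than a first exon, and no share matched for length was computed. Both exons belong to the C-type genes, which in neurons are expressed more uniformly than the alternate genes. Of 14 alpha first exons 6 had no peak in any library, and of 21 gamma first exons 5 had none. No share of all genes without a peak was computed. In bulk libraries a transcript present in few cells and one at a low level in every cell cannot be told apart. Per kb, the alpha first exons held 0.23, 0.085 and 0.28 same-strand peaks against 2.14, 4.71 and 6 on the shared alpha 3′UTR, so the shared sequence was denser in each library. Since every spliced alpha transcript carries the shared sequence and only one of the first exons, the 2 densities are not on the same footing.

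Pcdhgc3 stood out among the first exons. Its 2568 nt exon held 1 peak in replicate 1, 8 in replicate 2 and 9 in replicate 3, all 86 to 200 nt wide, and none on the opposite strand. They covered 104, 704 and 847 nt. In all, 8 stretches that summed to 387 nt were covered in at least 2 libraries, mostly replicates 2 and 3, while no stretch of 8 nt or more was covered in all 3. The single peak of replicate 1 shared 26 nt with replicate 2. The other 20 gamma first exons followed the opposite order across libraries, with 15, 7 and 3 peaks on 10, 7 and 3 exons. The other gamma C-type genes, Pcdhgc4, needed for the survival of cortical interneurons, and Pcdhgc5, held 1 peak in replicate 1 and 0 in the others. Some gamma exons lay under long peaks: 1 peak of 3152 nt in replicate 1 covered the Pcdhgb2 exon from end to end, and 1 of 5852 nt in replicate 3 did so for Pcdhga7.

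Pcdhac2, the last alpha gene before the constant exons, held 2 same-strand peaks in each library. Their coverage was 161, 1474 and 188 nt, the second being high because 1 peak of replicate 2 was 1362 nt wide. On the opposite strand it held 0, 2 and 1. Its neighbour Pcdhac1 held 3, 0 and 1. The alternate alpha exons held at most 2 peaks in a library. The symbol Pcdha11 belongs to a pair of gene models, and the downstream one held 0, 1 and 1 peaks while the upstream one held none.

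**Figure D2:**
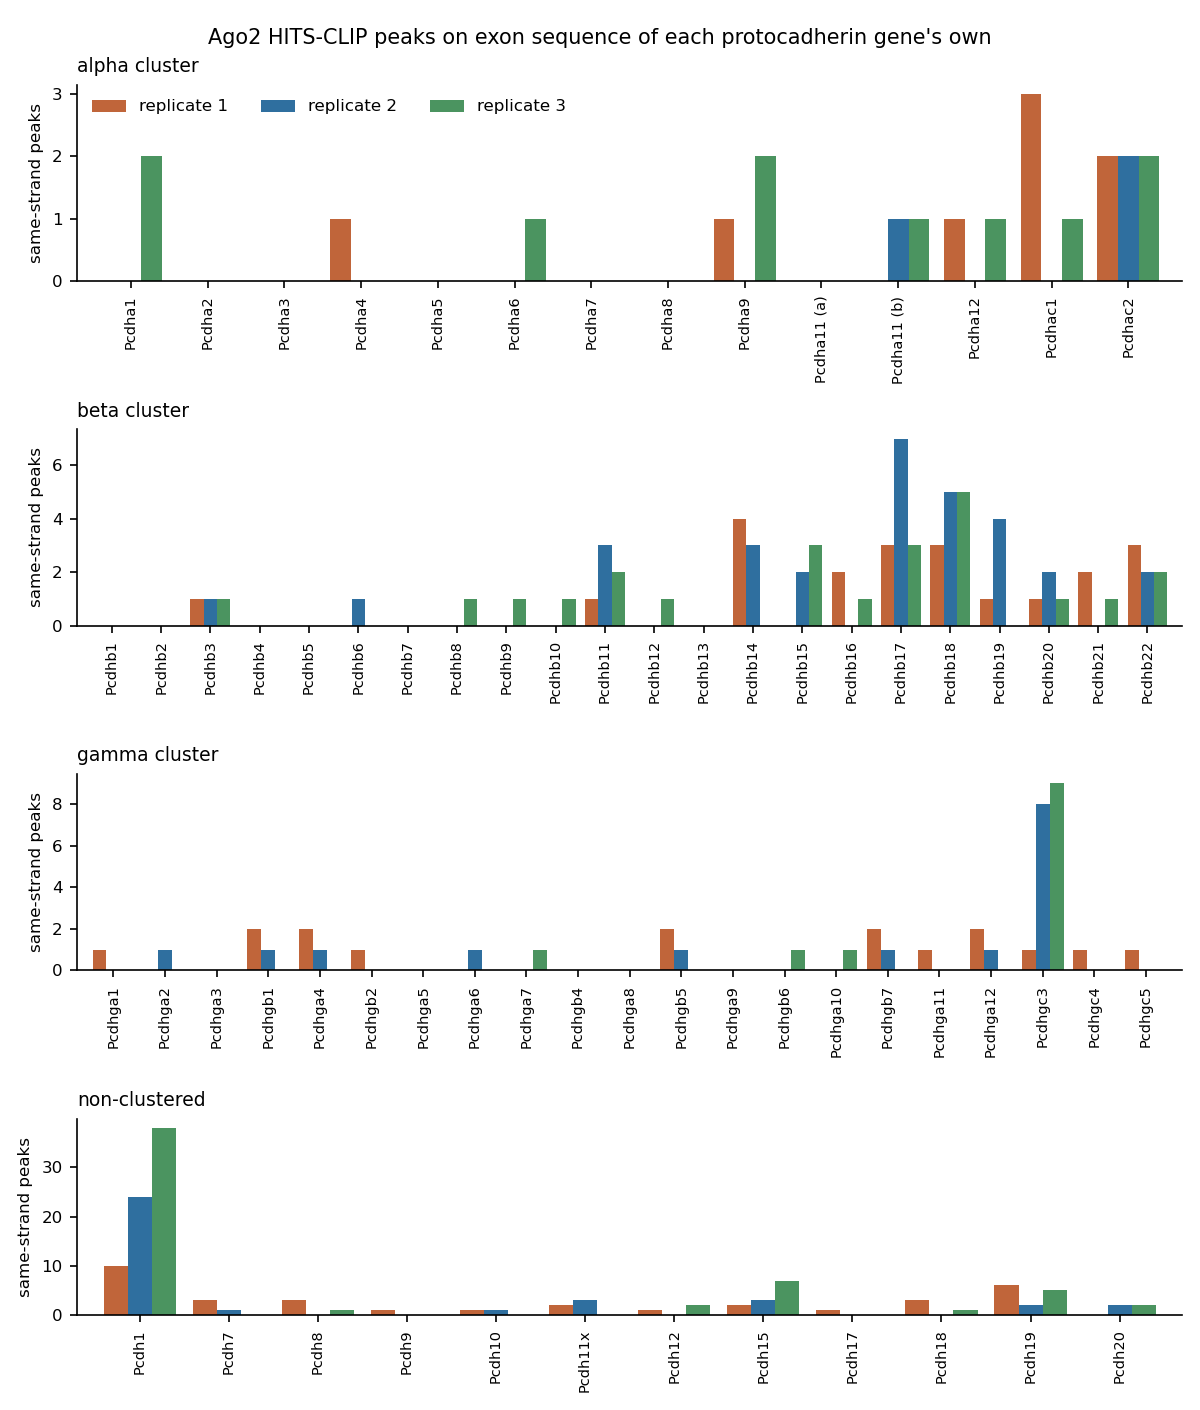
Same-strand peaks in each library (coloured bars) on exon sequence of each gene's own: the variable first exon for alpha and gamma genes, all exons for beta and non-clustered genes. Pcdha11 (a) and (b) are the upstream and downstream gene models of that symbol, and each panel has its own vertical scale. Pcdhgc3 (1, 8 and 9 peaks) and Pcdh1 (10, 24 and 38) stand above their groups in replicates 2 and 3.

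Near-identical sequence could place a read on the wrong gene of a cluster. The share of a gene's own 30-mers found once in the genome was 61.9% to 100% for alpha genes, 76.6% to 100% for beta genes and 75.6% to 100% for gamma genes, and at least 98.8% outside the clusters. Each of the 318 same-strand peaks on member exons held at least 1 such 30-mer, so requiring one removed none of them. How the authors' alignment treated reads with several matches is not given in the sources used here.

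The 22 beta genes are short, mostly single-exon genes, and each carries its own 3′UTR. Of these, 3 had a same-strand 3′UTR peak in all 3 libraries, Pcdhb11, Pcdhb18 and Pcdhb22, beside 23.9% of all genes with a 3′UTR. Pcdhb18 was the densest of them, with 2, 4 and 4 peaks over 2508 nt and a coverage of 4.19%, 13% and 15.1%, while the opposite strand held 2, 0 and 1. Replicate 1 was again the lowest. Pcdhb11 held 1, 2 and 2 peaks covering 2.63%, 9.27% and 10.1% of 1824 nt. Pcdhb22 held 1, 1 and 2, covering 2.24%, 2.21% and 4.48% of 3614 nt. Its exons overlap those of Pcdhb21 by 455 nt on the same strand, and a peak there cannot be assigned to one gene. This overlap lies upstream of the Pcdhb22 3′UTR and holds none of the 3′UTR peaks of Pcdhb22.

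With coding sequence included, 6 of the 22 beta genes had a peak in all libraries, beside 40% of all genes, and Pcdhb3, Pcdhb17 and Pcdhb20 joined the first 3. Pcdhb17 held 3, 7 and 3 peaks, and here replicate 2 was highest. Pcdhb3 held 1 in each library, in 3 places that did not overlap. Another 6 beta genes had no peak in any library, Pcdhb1, Pcdhb2, Pcdhb4, Pcdhb5, Pcdhb7 and Pcdhb13, with no share of all genes computed. Apart from Pcdhb3, the genes with peaks in all libraries lay in the downstream part of the cluster, where the longer 3′UTRs also lie, and the part of position and of length was not tested. As a group, beta 3′UTRs held 0.36, 0.47 and 0.36 same-strand peaks per kb against 0.17, 0.056 and 0.083 on the opposite strand, and beta coding sequence held 0.11, 0.27 and 0.17 against 0.095, 0.076 and 0.095.

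On exons, Pcdh1 held more peaks than any other member in every library. It codes for a non-clustered protocadherin known from airway epithelium, and it lies downstream of the gamma cluster on chromosome 18, on the minus strand from 38185914 to 38212053. Its exons held 10, 24 and 38 same-strand peaks and 1, 0 and 1 on the opposite strand. Of these, 7, 21 and 34 were 86 to 200 nt wide. The 4042 nt 3′UTR held 4, 12 and 12, covering 8.09%, 32.2% and 31.6%, a mean of 24% ± 13.8 (SD, n = 3) that exceeded 75.9% of the long 3′UTRs. Coding sequence held 5, 11 and 25 peaks over 3797 nt, or 1.32, 2.9 and 6.58 per kb against 0.99, 2.97 and 2.97 for the 3′UTR, and was thus the denser part in replicates 1 and 3. In the introns of Pcdh1, which span 17.3 kb, 3, 0 and 9 peaks lay on the strand of the gene and 5, 0 and 1 on the other. In replicates 2 and 3 a peak of 1049 nt and one of 989 nt ended at the same base, 38190612, in the intron upstream of the last exon.

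The other 11 non-clustered genes were sparse, and which strand of their 3′UTRs held more peaks changed between libraries. Together their 3′UTRs held 10, 3 and 9 same-strand peaks and 12, 2 and 3 on the opposite strand. No 3′UTR of this set had peaks in all 3 libraries. Pcdh19, an X-linked gene mutated in a form of epilepsy, held 3, 0 and 4 3′UTR peaks, and 6, 2 and 5 over all exons against 1, 4 and 2 on the opposite strand. Pcdh15, a part of the tip link of hair cells, held 2, 3 and 7 exon peaks against 4, 4 and 3 on the opposite strand. Both genes therefore met the rule of an exon peak in all libraries on either strand, and in Pcdh15 the only stretch covered in all 3 libraries, 79 nt, was on the opposite strand. Pcdh8, which controls cell adhesion at synapses, had 3 peaks on its 596 nt 3′UTR in replicate 1, covering 36.1%, and 0 in the others.

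For the remaining genes the exon counts were low. Pcdh7 held 3, 1 and 0 peaks, Pcdh9 held 1, 0 and 0, and Pcdh10 held 1, 1 and 0, with 3, 2 and 1, then 1, 0 and 1, then 6, 2 and 1 on the opposite strand. Pcdh7 and Pcdh10, like Pcdh15 and Pcdh19, had an opposite-strand peak in all libraries. Pcdh11x, X-linked like Pcdh19, held 2, 3 and 0, against 5, 1 and 0 on the opposite strand. Pcdh12, known from endothelium, held 1, 0 and 2 against 0, 1 and 0. Pcdh17 held 1, 0 and 0 against 3, 0 and 1. Over the libraries together, the opposite strand held more in Pcdh7, Pcdh9, Pcdh10, Pcdh11x and Pcdh17. Pcdh18 held 3, 0 and 1 against 2, 1 and 0, and Pcdh20 held 0, 2 and 2 against 0 in each. With counts this low the order of these genes was not the same in any pair of libraries.

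Counted over all 36 separate 3′UTRs, 5 had a same-strand peak in every library: alpha, Pcdhb11, Pcdhb18, Pcdhb22 and Pcdh1. Among all protein-coding genes with a 3′UTR, 23.9% of 21022 met this rule. On the opposite strand the counts were 0 of 36 and, over all genes, 2.63%. Length matters to such a rule, so the genes were split into 5 classes of about equal size by 3′UTR length. Of the protocadherin 3′UTRs, 10 fell between 1306 and 2385 nt, of which 2 met the rule beside 33.7% of all genes, and 12 were longer, of which 3 met it beside 51%. The 14 shorter ones had no call, beside 2.87% to 20.9% of all genes. If each alpha gene were given the shared 3′UTR, the count would be 18 of 69, which repeats one stretch of sequence 14 times. Restricted to peaks of 86 to 200 nt, the alpha 3′UTR and Pcdh1 remained, beside 16.9% of all genes. With a peak required in at least 2 libraries, 14 of the 36 met the rule beside 42.2% of all genes, a share near that background.

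**Figure D3:**
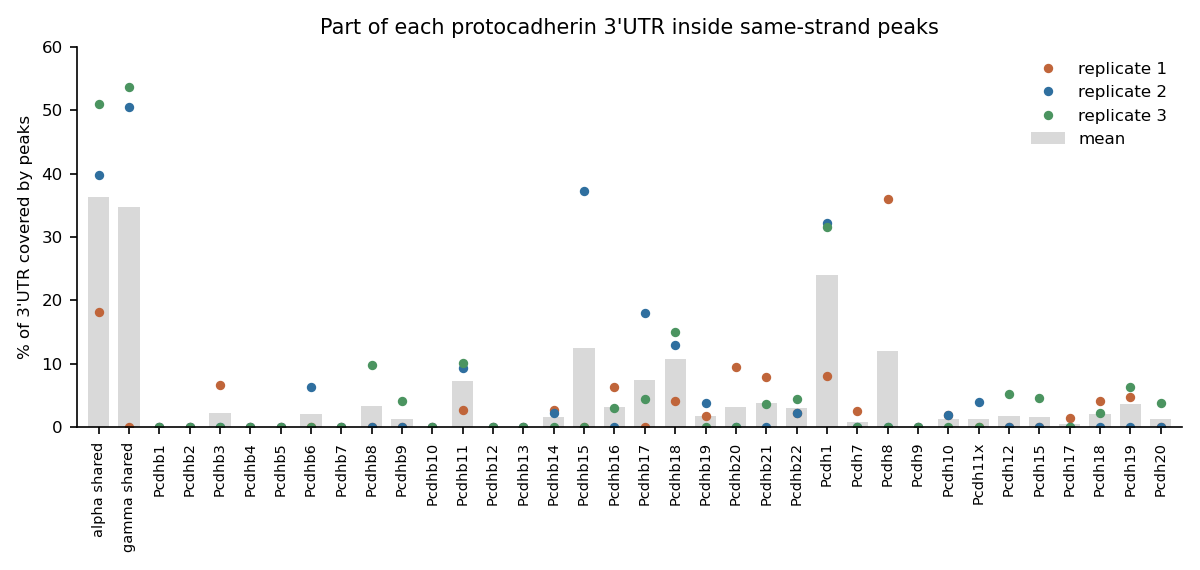
Percentage of each of the 36 protocadherin 3′UTRs inside same-strand peaks, with 1 point per library and a bar for the mean. The alpha and gamma shared 3′UTRs and Pcdh1 have the highest means, 36.3%, 34.7% and 24%; the points of Pcdhb15 and Pcdh8 at over 36% come from 1 library each.

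On exon sequence of their own, 11 of 69 members had a same-strand peak in all libraries, beside 40% of all genes. On the opposite strand 4 had one, beside 13%. Shares of all genes in this paragraph are over all exons, 3′UTR included, while alpha and gamma members count by their variable first exon alone. The 11 were Pcdhac2, Pcdhgc3, Pcdh1, Pcdh15, Pcdh19 and the 6 beta genes. In 17 members no library had a peak, and the share of all genes with none was not computed. Peaks of 86 to 200 nt met the rule for Pcdhgc3 and Pcdh1 alone, beside 25.1% of all genes. A peak in at least 2 libraries was found for 32 of 69, beside 59.9%.

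The strand of the peaks was compared with that of the genes. Over the exons of all members, 83, 107 and 128 peaks lay on the strand of the gene and 42, 30 and 25 on the opposite strand, so that 66.4%, 78.1% and 83.7% were on the strand of the gene. The 95% Wilson intervals, which cover the counting of peaks only, were 57.7% to 74.1%, 70.5% to 84.2% and 77% to 88.7%. The ratio averaged 3.55 ± 1.57 (SD, n = 3) and was lowest in replicate 1. After these values were seen, the peaks were divided between the 4 loci with the most of them, namely the alpha shared sequence, the gamma shared sequence, the Pcdhgc3 first exon and Pcdh1, and everything else. Since their peaks chose these loci, the division is a description only. They held 18 of 83, 55 of 107 and 74 of 128 same-strand peaks of all widths and 12 of 26, 48 of 61 and 64 of 80 of those of 86 to 200 nt. Elsewhere all widths together gave 65, 52 and 54 peaks on the strand of the gene and 41, 30 and 23 on the other, and peaks of 86 to 200 nt gave 14, 13 and 16 against 8, 1 and 1.

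**Figure D4:**
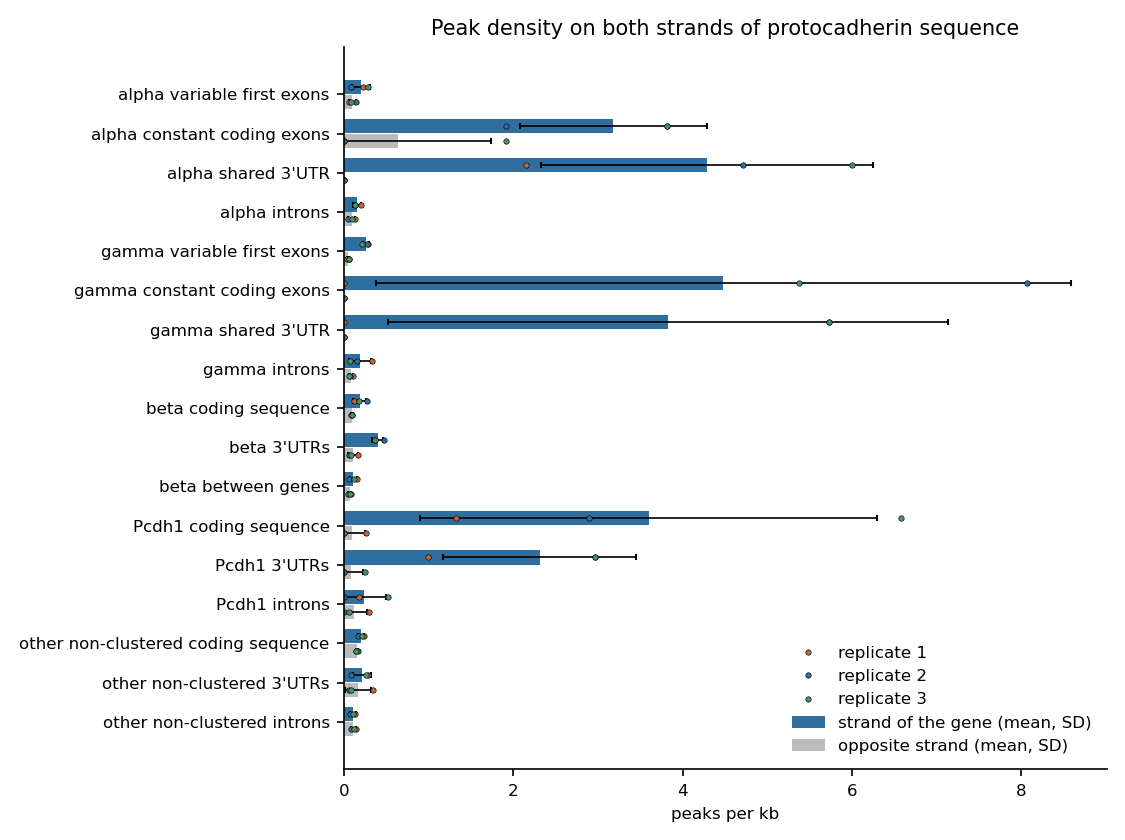
Peaks per kb on the strand of the gene (blue) and on the opposite strand (grey) in each class of protocadherin sequence, with 1 point per library, the mean as a bar and the SD as a line cut at 0. The shared alpha and gamma sequence and Pcdh1 exons exceed 2 peaks per kb on average on the strand of the gene, while the means of all other classes lie below 0.5 on that strand, with a single library above it, replicate 3 on Pcdh1 introns at 0.52.

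Introns were measured in the same way. The introns of the 11 other non-clustered genes, 3661 kb in all, held 1128 same-strand and 1199 opposite-strand peaks over the 3 libraries. In the alpha cluster the sequence between exons held 44, 27 and 28 peaks on the strand of the genes and 27, 10 and 21 on the other, and in the gamma cluster 40, 18 and 9 against 13, 9 and 7. In each library both clusters had more on the strand of the genes. Between the beta genes the counts were 25, 10 and 20 against 13, 7 and 12. Peaks per kb in the 3 clusters stayed at or below 0.33 in every library.

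Coverage by all 3 libraries at the same bases was rare. On member exons, 7 stretches of at least 8 nt were covered in all libraries, 4 in the alpha shared 3′UTR and 3 in Pcdh1, and 1 on the opposite strand. The deposited peaks appear padded by about 30 nt on each side, and with this length trimmed from each side 1 stretch was found in place of 7. The alpha stretches measured 40, 84, 132 and 32 nt and lay at 37186124 to 37186163, 37186399 to 37186482, 37186666 to 37186797 and 37186801 to 37186832, so that they filled 12.3% of the 3′UTR. The last of these is separated from the third by 3 nt. In Pcdh1 they measured 13 and 39 nt in the 3′UTR, at 38185957 to 38185969 and 38188618 to 38188656, and 19 nt in coding sequence, at 38197928 to 38197946. The 39 nt stretch was 87.2% A or T. Coverage by at least 2 libraries was more frequent, with 18 stretches in Pcdh1, 8 in Pcdhgc3, 7 in the alpha 3′UTR and 5 in the gamma 3′UTR, and 30 of all such stretches came from replicates 2 and 3 alone. The stop codon was left out here, so that a stretch across that of the gamma genes counted both in the coding part and in the 3′UTR.

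Matches to the seeds of 28 listed miRNAs were then located, out of 30 listed, each standing for its seed family. In all 36 3′UTRs there were 191 matches, of which 4 lay inside peaks of every library, and all 4 were in the alpha shared 3′UTR, in 3 of its common stretches. With the peaks trimmed, a single common stretch with a match was left, that of the miR-17-5p match. The miR-142a-5p and miR-181a-5p matches were then no longer inside peaks of every library. A miR-142a-5p 7mer lay at 37186126 to 37186132 of chromosome 18, and a miR-17-5p 7mer at 37186435 to 37186441. A pair of miR-181a-5p matches followed, a 7mer at 37186721 to 37186727 and an 8mer at 37186769 to 37186775, with starts 48 nt apart, inside the 132 nt stretch. At least 2 matches to this seed were found in 4.54% of the 2576 3′UTRs of 2000 to 2999 nt, and at least 1 in 27.4%. At least 1 match was found in 26% of these 3′UTRs for miR-142a-5p and in 20.2% for miR-17-5p. Such matches are therefore common by sequence alone, and a match does not show that the miRNA was bound there.

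A further pair of alpha matches, both 8mers, lay in peaks of replicates 2 and 3: miR-218-5p at 37187047 to 37187053 and miR-29a-3p at 37187606 to 37187612. A miR-15a-5p 8mer at 37186272 to 37186278 and a second miR-17-5p 7mer lay in a peak of replicate 2 alone. The other 4 of the 12 alpha matches, to miR-221-3p, miR-23a-3p, miR-19b-3p and miR-182-5p, lay outside all peaks. Within the alpha 3′UTR, peak sequence held 9.43, 8.61 and 5.04 matches per kb, and the rest 4.19, 2.85 and 5.25. The order of these held in replicates 1 and 2 and turned in replicate 3. Over all 36 3′UTRs the values were 3.14, 3.56 and 1.92 per kb inside peaks against 2.38, 2.33 and 2.44 outside, with the same change of order in replicate 3.

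The gamma 3′UTR held 2 matches, to miR-24-3p and miR-183-5p, and neither lay fully inside a peak, as was required of every match here, although 50.6% and 53.6% of its length was covered in replicates 2 and 3. The miR-24-3p match, at 37841111 to 37841117, overlapped the start of a replicate 3 peak at 37841113. In the Pcdh1 3′UTR 4 of 13 matches lay in peaks of replicate 2, to miR-7a-5p, miR-9-5p, miR-92a-3p and miR-128-3p, and 0 in the others. None of the common stretches of Pcdh1 held a match. A miR-137-3p 7mer of Pcdhb18, at 37493997 to 37494003, lay in peaks of replicates 1 and 2 and was the only match outside the alpha 3′UTR found in more than 1 library.

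Reads of a miRNA carried by Ago2 fall on its own locus, over the mature arm. Only the listed member of each seed family was looked up here, although a match fits every member of the family. A peak overlapped the mature arm by at least 15 nt in all libraries for miR-17-5p, with 2, 1 and 1 peaks, for miR-142a-5p, with 1 in each and 1 on the opposite strand in replicate 1, for miR-29a-3p, with 2, 2 and 1, and for miR-137-3p, with 2 in each. For miR-181a-5p both loci, whose arms a read cannot tell apart, had a peak in replicate 2 alone, and in replicate 3 each had 1 on the opposite strand. For miR-218-5p the Mir218-1 arm had 1 peak, in replicate 1.

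Matches in a single library were also found on other chromosomes, and the 23-base stretches around 3 of them are shown, 5′ to 3′ on the strand of the gene with the match in capitals, as examples that did not recur.
Pcdh7, miR-23a-3p match, chr5:58130887-58130909, plus strand, replicate 1: ttcagacgAATGTGAcaatccat
Pcdh11x, miR-142a-5p match, chrX:120908361-120908383, plus strand, replicate 2: tggttgaaACTTTATtgaaataa
Pcdh19, let-7a-5p match, chrX:133585995-133586017, minus strand, replicate 3: actgaataCTACCTCatgcaaaa
The sequences are the GRCm38 reference, and the matches are centred 1546, 2027 and 1982 nt after the stop codon. The Pcdh19 match is an 8mer and the others are 7mers. The miR-142a-5p word in Pcdh11x is the same one that lay in peaks of all libraries in the alpha 3′UTR.

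Most genes on lists of proteins that act with the protocadherins had repeatable 3′UTR peaks. The first list held regulators of promoter choice in the clusters: Ctcf, which binds the promoters and enhancers, the cohesin subunits Rad21, Smc1a, Smc3, Stag1 and Stag2, the cohesin loader Nipbl and release factor Wapl, and Smchd1, Dnmt3b and Setdb1, which act in silencing. Of these 11 genes, 10 held 3′UTR peaks in each of the libraries, beside 23.9% of all genes. Ctcf held 2, 14 and 12, Wapl held 4, 21 and 13, and Stag2 held 3, 14 and 15, with replicate 1 lowest in each. Smc1a was the exception, with 0, 0 and 2. The second list held binding and signalling partners of the cytoplasmic tails and the proteases that cleave them, and 12 of 14 met the rule. Among them the WAVE complex gene Abi2 held 4, 44 and 36 peaks on 4243 nt, Adam10, which sheds protocadherin ectodomains, held 8, 19 and 18, and Axin1, a Wnt pathway scaffold, held 1, 2 and 3. The WAVE complex gene Cyfip1, with 0, 5 and 3, and the kinase gene Ptk2b, with 1, 0 and 1, did not meet it.

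Other cadherin superfamily genes were also sparse. Of 32 genes, 4 met the rule, Cdh1, Cdh6, Celsr3 and Fat1, beside 23.9% of all genes. In 18 there was no 3′UTR peak in any library, a count without a computed share of all genes. Cdh6 held 1, 2 and 2, Celsr3, a planar polarity cadherin, held 1, 3 and 6, Fat1 held 3, 3 and 2, and Cdh1, the epithelial cadherin, held 1 in each library. The neuronal cadherin Cdh2 held 0, 1 and 0. Peaks depend on how much of a transcript a cell contains as well as on Ago2, and these files hold no expression values.

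**Figure D5:**
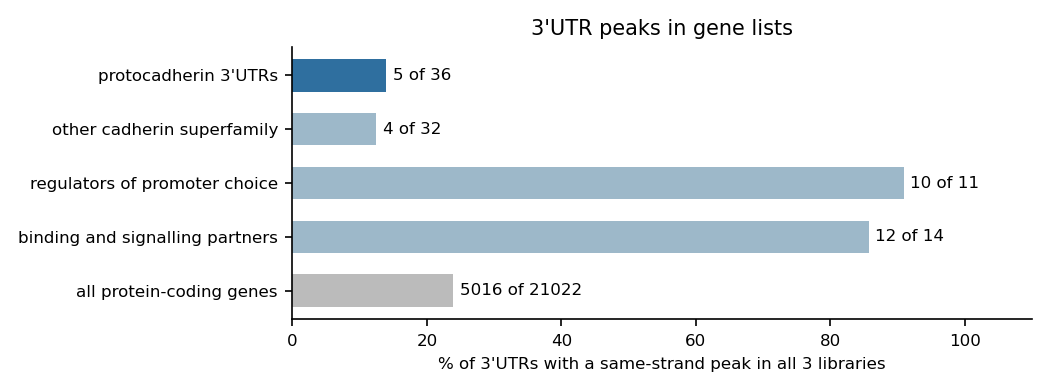
Percentage of 3′UTRs with a same-strand peak in all 3 libraries for the protocadherins (each shared 3′UTR once), 3 lists of other genes and all protein-coding genes, with the counts beside the bars. The protocadherins (5 of 36) and other cadherins (4 of 32) lie below all genes (23.9%), and the regulators (10 of 11) and partners (12 of 14) above.

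The identity of the cells was checked with marker lists. Of 12 sympathetic neuroblast and neuron markers, 7 met the same rule, among them Hand2, with 5, 6 and 11, while Nefl had none in any library. Of 15 markers of other cell types 3 met the rule, 2 of 4 for oligodendrocytes and 1 of 4 for myeloid cells, against 0 of 4 for astrocytes and 0 of 3 for hepatocytes. Beside the 23.9% of all genes that met it, these counts do not show other cell types to be absent. The defining markers Mog, Csf1r, Apoa1 and Ttr had no peak in any library. The part of other cell types in the protocadherin peaks was not tested.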

How the data were processed

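Ago2 HITS‐clip was performed by the authors on 3 samples of N2A cells, and peaks were deposited as 1 table of intervals with strand, score and library. The submitters' processing notes name FastQC, cutadapt, STAR and mm10. The peak caller, its threshold and the handling of reads with several matches are not given in the sources used here. The deposited score has no stated unit and was nearly always tied, so it was not used. Starts were read as counted from 0. Peaks, which appear padded by about 30 nt on each side, were used as deposited on the 21 nuclear chromosomes.

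Genes came from GENCODE M21, and for each gene the longest 3′UTR among protein-coding transcripts was used, without the stop codon. Exon sequence in at least 3 genes of a cluster was shared. An overlap of 1 nt counted, a seed match had to lie fully inside a peak, and a common stretch was at least 8 nt covered in all libraries. Sequence came from GRCm38 and miRNAs from RefSeq. Interval code was tested on simulated data. All values are descriptions. With 1 group there is no comparison between conditions, and tests within it, such as of strand, were not run, since 3 libraries are too few for an exact test to reach the usual threshold. The alternatives were peak width, trimming by 30 nt, an overlap of 20 nt, midpoints, 2 libraries, the opposite strand, unique 30-mers, merged 3′UTRs, 8mers and each library left out. Named were every non-clustered gene, clustered genes with a peak on their own exons in all libraries (up to 12 per cluster by the exon length covered in all 3), the C-type genes and the listed genes; others named were chosen after their values were seen, and some listed genes are not reported here. The members and lists were chosen with earlier results of these data known. Python 3.11.15, numpy 2.4.6, numba 0.67.0, scipy 1.17.1 and matplotlib 3.10.9 were used.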

Additional observations from a re-analysis of the deposited data

Results flagged for a closer look

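Pcdhgb8, annotated as a polymorphic pseudogene of the gamma cluster and therefore not a member, held 5 same-strand peaks on its 2499 nt first exon over the 3 libraries, 1, 2 and 2, and 0 on the opposite strand in each. It is given because it lies outside the genes compared. Among the 35 member first exons, Pcdhac2, with 2, 2 and 2, and Pcdhgc3, with 1, 8 and 9, also had a peak in all 3 libraries, and the others did not. No explanation was tested.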

How the results depend on the processing

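No paired analysis was possible because only a single group was sequenced. Of 72 values over 10 results and their alternatives, 28 moved beyond 1.5 times for a count or 1 SD between libraries for another value, and 44 did not. With peaks of 86 to 200 nt, the number of 3′UTRs called in every library fell from 5 to 2. Genes with a peak on their own exons fell from 11 to 2 and first exons from 2 to 1. Alpha constant coding coverage changed from 24.7% to 12.1%. The mean strand ratio went from 3.55 to 48.1 ± 40 (SD, n = 3). It was 3.25 in replicate 1, against 1.98 over all widths, and 61 and 80 in the others, each over a single opposite-strand peak. A rise in this ratio followed from giving the range for its strand contrast. With a peak required in at least 2 libraries the counts became 14 3′UTRs (beside 42.2% of all genes), 32 genes and 11 first exons. The 32 stand beside 59.9%, a share over all exons of a gene. Common stretches became 52, with the one across the gamma stop codon counted once. On the opposite strand the counts were 0, 4 and 0, and 1 stretch. Trimming by 30 nt left 1 common stretch of 7 and 1 of 3 with a seed match, and coverage of 8.84% for alpha constant coding and 16.8% for the alpha 3′UTR. Gamma coverage, whose SD is large, stayed within 1 SD but changed from 22.5% to 6.72% (trimmed), 10% (86 to 200 nt) and 12.8% (without replicate 2) for constant coding, and from 34.7% to 19.3% (trimmed) for the 3′UTR. With 8mers only, 1 stretch with a match remained. Leaving out each library gave 7 to 9 3′UTRs, 14 to 21 genes and 3 to 7 first exons. It gave 14 to 36 common stretches and 3 to 5 with a match. Fewer libraries then had to share a peak, and shares of all genes were not computed for these settings. Replicates 1, 2 and 3 each moved at least 1 of these counts by over 1.5 times when left out. Without replicate 1, common stretches numbered 36, and the gamma 3′UTR and that of Pcdhb17 joined those with a peak in all. The unknown read depth limits every absence of a peak.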
